A study of Mus musculus with 32 samples.

Results

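The lysosome is the acidic organelle in which cells break down proteins, glycans and lipids that arrive by endocytosis or autophagy. Its lumen holds acid hydrolases, among them the cathepsins, and its membrane carries heavily glycosylated proteins, transporters and channels that protect it and move products out. In skeletal muscle that has lost its nerve, protein breakdown runs through the ubiquitin-proteasome system and through the autophagy-lysosome route. Macrophages, which enter injured muscle, are also rich in lysosomes.

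The genes described here were 34 lysosomal genes, given by symbol with no threshold on their values, out of 33397 genes in the table. All 34 were found under a single Ensembl identifier each, and all 34 passed the filter on low values. By role they comprised 7 membrane proteins, 2 cholesterol exporters, 10 cysteine proteases, 3 other proteases, 6 glycosidases, and 6 lipid hydrolases or activator proteins. RNA was sequenced from whole gastrocnemius (GAS) muscles of C57BL/6 mice, which the study describes as male C57BL/6J mice aged 6 to 8 weeks at surgery. Groups were 0, 1, 3, 5, 7, 14, 21 and 28 d after the sciatic nerve was cut, with 4 samples in each and 32 in all. The labels list the nerve transection for every group, 0 d included, and the 0 d group, whose columns are headed C, was taken as the control. The labels list no mutant allele or drug for any of these samples, while the study describes isoflurane anaesthesia and buprenorphine at surgery. Whole muscle mixes fibres with immune, vascular, nerve and connective tissue cells. In such bulk RNA, more cells of a type and more RNA per cell cannot be told apart.

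Values are FPKM, fragments divided by exon length and by the size of the library, so levels can be compared between genes. Multiplying FPKM by exon length gave back whole fragments, from 14199901 to 17561584 per sample, and every one of the 34 genes had at least 51 fragments in every sample. A gene was called higher or lower where limma on log2(FPKM + 1) gave a Benjamini-Hochberg adjusted p under 0.05 over all genes tested and the change was at least 1.5-fold. Log2 fold changes were taken after adding 1 to each FPKM, so changes of genes at low levels read smaller than they were. Mitochondrial transcripts took 14.5 to 18.2% of fragments at 0 d and 7.27 to 12% at 14 to 28 d. Myofibre transcripts fell too, the sum of 7 such genes being 25416 to 28716 FPKM at 28 d (0 d values below). FPKM values of the remaining genes move up where abundant classes move down. The main counts are therefore also given after median-ratio scaling, which sets the typical gene to equal levels in all samples. The part of each class in the gap between the 2 scales was not tested. Muscle identity was clear: 7 myofibre genes summed to 39388 to 43095 FPKM at 0 d, whereas 6 retinal genes, looked at because the extraction text in the labels speaks of retinas, never exceeded 0.528 FPKM in sum. The 6 denervation-response genes, such as those for acetylcholine receptor subunits, were all higher at 3 d and later.

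One of the 4 samples at 3 d stood apart from the other 3. Its 14 macrophage marker genes summed to 342 FPKM, against 643 to 1226 FPKM in the others, and 28 of the 34 lysosomal genes were lower in it than in any of the other 3 samples. At 1 d, 1 sample stood apart the other way, with a marker sum of 468 FPKM against 296 to 323 FPKM, and 26 of the 34 genes were higher in it than in the rest. The 3 d sample also had the highest mitochondrial share of its group, 13.5% against 9.95 to 11.5%, and the fewest fragments, 15318073. Both orderings were counted for the 34 genes alone, so they do not show a shift particular to lysosomal genes. Counts in FPKM at 3 d and 1 d are therefore also given without these samples, as are the 3 d changes against 0 d of single genes.

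Lysosomal genes are known targets of TFEB and related factors, which bind a promoter sequence built around the E-box CACGTG. The 300 bases around the RefSeq transcription start (250 before it and 50 after, GRCm38.p6) were available for 30 of the 34 genes. CACGTG, which reads the same on both strands, occurred in 10 of these 30 genes (33.3%), against 8.09% of all 27025 genes with such a sequence. The longer TCACGTG, which contains the first motif and was searched on both strands, occurred in 8 of the 30 (26.7%), against 4.29% of all genes. The 10 genes were Ctsa, Ctsd, Ctsf, Ctsl, Gaa, Gla, Glb1, Lamp1, Lgmn and Mcoln1.

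The stretches shown next are those of the Lamp1 promoter, which held 4 matches, of 4 genes whose levels are followed in detail, of Mcoln1, and of Ctss, which held none and had the largest late change. Each reads 5′ to 3′ on the gene's strand, with CACGTG in capitals. Lamp1 and Ctss are given as the 150 bases that end just before the start, at chr8:13159011-13159160 (+) and chr3:95526636-95526785 (+). The others are 30 bases around a match, at chr7:142387908-142387937 (-) for Ctsd, chr11:119267811-119267840 (+) for Gaa, chr12:102439124-102439153 (-) for Lgmn, chr13:64370739-64370768 (-) for Ctsl, and chr8:3500462-3500491 (+) for the Mcoln1 match nearer the start.
Lamp1: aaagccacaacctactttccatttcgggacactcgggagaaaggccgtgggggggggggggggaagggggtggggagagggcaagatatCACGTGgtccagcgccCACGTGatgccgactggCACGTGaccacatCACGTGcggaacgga
Mcoln1: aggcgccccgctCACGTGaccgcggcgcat
Ctsd: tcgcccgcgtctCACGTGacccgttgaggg
Gaa: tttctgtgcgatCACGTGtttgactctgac
Lgmn: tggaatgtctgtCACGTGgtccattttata
Ctsl: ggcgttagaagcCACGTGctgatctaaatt
Ctss: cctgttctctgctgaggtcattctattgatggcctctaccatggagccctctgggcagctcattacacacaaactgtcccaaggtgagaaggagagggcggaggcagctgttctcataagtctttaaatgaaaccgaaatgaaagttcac

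Genes with and without the motif overlapped in their late change. Of the 10 genes with CACGTG, 5 were called higher at 14 to 28 d, with a median log2 fold change of 0.54 and a range from -0.09 for Lamp1 to 1.91 for Lgmn. Of the 20 genes without it, 13 were called higher, with a median of 0.77. After the median-ratio scaling, 3 of the 10 and 5 of the 20 were called higher, with medians of 0.25 and 0.45, so the order of the shares turned with the scaling. Over all genes tested, 14.5% were called higher in this comparison in FPKM and 6.88% after scaling. Lamp1, with 4 matches, and Mcoln1 and Gla, with 2 each, were called higher at no time point, whereas Ctsd, with 2, and Ctsl and Lgmn, with 1 each, were called higher at all 7 in FPKM. Between them, Ctsa, with 2, was called higher at 2 time points in FPKM, and Gaa, Glb1 and Ctsf, with 1 each, at 5.

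The first question was when the lysosomal genes changed after the nerve was cut. Their summed level was 1130 ± 41.5 FPKM (SD, n = 4) at 0 d, 1384 ± 131 FPKM at 1 d, 1887 ± 363 FPKM at 3 d, 2066 ± 108 FPKM at 5 d and 2165 ± 392 FPKM at 7 d. It then stood at 1908 ± 203 FPKM at 14 d, 1651 ± 63.2 FPKM at 21 d and 1682 ± 38.5 FPKM at 28 d. Group means peaked at 7 d for 12 genes, at 5 d and at 28 d for 7 genes each, at 3 d for 4, at 1 d for 2, and at 14 d and 21 d for 1 each. Ctsd, Ctsl and Lgmn were called higher at all 7 time points, and 7 genes at none of them: Lamp1, Mcoln1, Ctso, Tpp1, Gla, Psap and Smpd1. Of all 22071 genes tested, 1.92% were called higher at all 7 and 74.3% at none. After the median-ratio scaling described above, Ctsl and Lgmn passed as higher at all 7 (0.775% of all genes), Ctsd at 6 (1.96%), and 17 genes at none (84.2%).

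At 1 d, 6 of the 34 genes were higher (Npc1, Ctsl, Gaa, Lgmn, Ctsd and Neu1), where 6.34% of all 22071 genes tested were, and none was lower, where 2.49% were. After median-ratio scaling 5 were higher (4.14% of all genes) and none lower (4.68%). At an unadjusted p under 0.05, 1 gene, Laptm4a, was lower at 1 d in FPKM. Over all genes, 12.1% were lower by that p. Limma-voom called none lower (5.13% of all genes). Without the sample that stood apart, 6 were higher (5.53%).

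At 3 d, 17 genes were higher (13.2% of all genes) and 1, Smpd1, lower (6.03%), and after scaling 12 were higher (9%) and 2, Smpd1 and Ctso, lower (9.15%). Without the sample that stood apart, 21 were higher (15.4% of all genes) and none passed as lower (5.58%). At 5 d, 25 were higher (14.9%) and none lower (3.86%), against 15 (6.70%) and none (7.68%) after scaling. At 7 d the counts were 24 higher (15.4%) and none lower (4.10%), against 15 (7.15%) and none (7.92%) after scaling. No gene was lower at 5 d or 7 d even at an unadjusted p under 0.05 in FPKM (11.0 and 11.5% of all genes), and limma-voom on the recovered fragments called none lower there (6.34 and 6.77%).

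At 14 d, 22 genes were higher (14.6%) and none lower (3.83%), against 10 (6.56%) and none (7.53%) after scaling, and none was lower at an unadjusted p under 0.05 (10.5%) or with limma-voom (6.14%). At 21 d, 17 were higher (11.8%) and none lower (3.93%), whereas scaling gave 8 higher (6.43%) and 1, Npc1, lower (7.15%). Npc1 also had an unadjusted p under 0.05 in FPKM at 21 d. At 28 d, 21 were higher (14.2%) and 1, Npc1, lower (4.10%), against 6 (6.57%) and 1, again Npc1, (8.11%) after scaling. After scaling, the genes lower at an unadjusted p under 0.05 numbered 5, 1, 1 and 4 at 1, 5, 7 and 14 d in order, where no call was made (21.7, 22.8, 23.0 and 22.4% of all genes). Every gene called higher after scaling was also called higher in FPKM at the same time point.

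**Figure D1:**
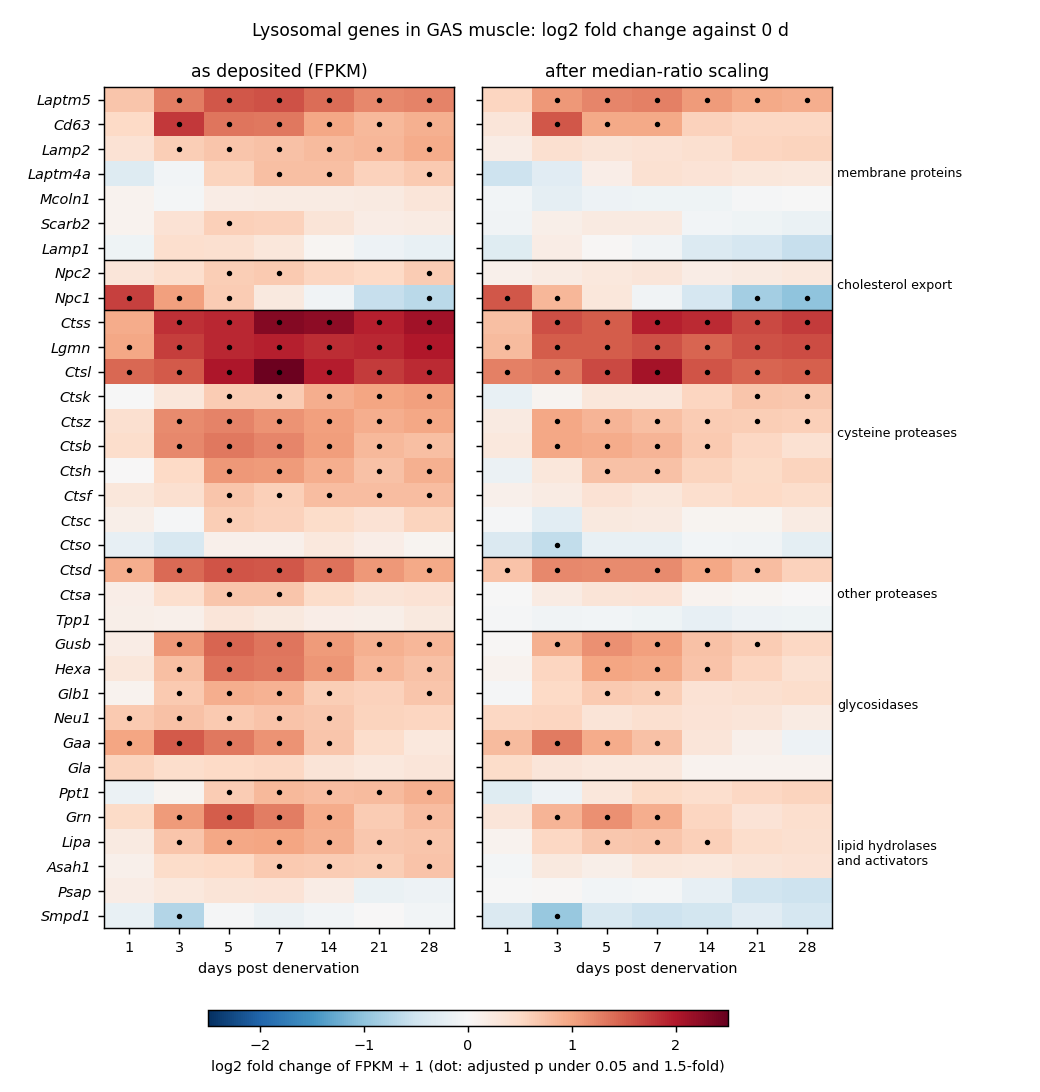
Log2 fold change against 0 d of each of the 34 lysosomal genes (rows, grouped by role) at 7 time points (columns), on the log2(FPKM + 1) scale, as deposited (left) and after median-ratio scaling (right), with a dot where the gene was called. Ctss, Lgmn and Ctsl were the darkest rows late in both panels, Npc1 went from higher at 1 d to lower at 28 d, and dots were fewer after scaling.

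The late comparison set the 12 samples at 14, 21 and 28 d against the 4 at 0 d. Of the 34 genes, 21 were higher (14.5% of 20243 genes tested) and none lower (4.26%), against 8 higher (6.88%) and 1 lower (8.15%) after scaling. The 8 were Ctss, Lgmn, Ctsl, Laptm5, Ctsd, Ctsk, Ctsz and Gusb, and the 1 lower was Npc1, which had an unadjusted p under 0.05 in FPKM as well, while limma-voom called none lower (7.35%). The median log2 fold change was 0.71 over the 34 genes and 0.15 over all genes, and 0.41 and 0.02 after scaling. The all-gene values include genes near the filter of 0.1 FPKM, whose changes read smaller after adding 1. Adding 0.1 instead, 22 of the 34 were higher late (28.3% of all genes) and none lower (6.83%). At each time point, too, the share of all genes called higher was larger with 0.1 than with 1.

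Among cysteine proteases, the largest group, 8 of 10 were higher late (5 after scaling), and they held the 3 largest late changes. Ctss, cathepsin S, which trims the invariant chain for antigen presentation, lies at chr3:95526786-95556403 (GRCm38, + strand). It stood at 9.92, 12.7, 12.7 and 15.8 FPKM in the samples at 0 d, and the 12 late samples ran from 40.8 to 104 FPKM with a median of 57.9. The ranges did not overlap, and the log2 fold change was 2.1 ± 0.17 (SE, adjusted p = 1.05e-08). At 3 d it stood at 13.8, 38.6, 88.1 and 106 FPKM, and at 7 d at 35.2, 43.5, 86.6 and 144 FPKM. The log2 fold change at 3 d was 1.83 ± 0.44, and 2.41 ± 0.38 without the sample that stood apart. These were wide spreads inside a group, since at 5 d the samples lay between 42.9 and 52.3 FPKM and at 28 d between 54.0 and 60.7 FPKM.

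Lgmn encodes legumain, the asparaginyl endopeptidase that also processes cathepsins, and lies at chr12:102394084-102439813 (- strand). Its samples at 0 d read 16.2, 19.7, 20.2 and 21.1 FPKM, and the late samples 63.3 to 83.7 FPKM with a median of 77.2. No late sample overlapped the controls, and the log2 fold change was 1.91 ± 0.08 (adjusted p = 1.64e-12). At 3 d its level was 27.0, 67.2, 93.4 and 111 FPKM, and the lowest of these belonged to the sample that stood apart (log2 fold change 1.73 ± 0.25 with it and 2.15 ± 0.18 without it). The mean was 74.6 FPKM at 3 d and 79.8 FPKM at 28 d, and the late samples did not differ from the early ones beyond their spread (log2 fold change 0.05 ± 0.15, adjusted p = 0.832, and -0.09 ± 0.10 without that sample).

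Ctsl, cathepsin L, a broad endopeptidase known to be induced in several forms of muscle wasting, lies at chr13:64359337-64370890 (- strand). It read 19.7, 20.1, 20.7 and 22.8 FPKM at 0 d and already 48.8, 53.4, 62.2 and 68.9 FPKM at 1 d. At 7 d its samples lay close together, at 115, 118, 119 and 120 FPKM, and late samples ran from 64.9 to 94.3 FPKM with a median of 77.2. It was above the control range at every time point, with a log2 fold change of 2.45 ± 0.11 at 7 d (adjusted p = 1.47e-16) and 1.86 ± 0.09 late (adjusted p = 4.84e-12). Gm47123 shares 1742 bases with its exons on the opposite strand and Gm49230 shares 395 on the same strand, and the sources used here do not say whether counting used strand, so part of its reads could belong to them.

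Ctsk, cathepsin K, the collagen-degrading enzyme of osteoclasts, kept its highest mean for 28 d. It went from 10.1 ± 1.53 FPKM at 0 d to 16.7 ± 5.26 at 7 d and 21.6 ± 1.99 at 28 d, and was called higher from 5 d on, though after scaling only at 21 d and 28 d. Ctsb and Ctsz, widely expressed proteases with carboxypeptidase activity, were higher from 3 d on, with late log2 fold changes of 0.87 and 0.97, and after scaling Ctsb passed at 4 time points and Ctsz at 6. Ctsh and Ctsf were higher from 5 d on (late 0.84 and 0.77), though after scaling Ctsh passed at 2 time points and Ctsf at none. Ctsc, which activates granule proteases of immune cells, passed at 5 d alone (0.61) and at none after scaling, and Ctso passed at no time point in FPKM, its late log2 fold change being 0.17.

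Of the other proteases, Ctsd changed most. Ctsd encodes cathepsin D, the main lysosomal aspartic protease, at chr7:142375911-142388038 (- strand), and its exons share 808 bases with Gm49369 on the same strand. It read 68.5, 71.2, 71.3 and 73.7 FPKM at 0 d, 130, 132, 132 and 141 FPKM at 1 d, and 181, 191, 195 and 204 FPKM at 3 d. Late samples ran from 129 to 198 FPKM with a median of 150. Each time point lay above the controls, with a log2 fold change of 1.42 ± 0.07 at 3 d (adjusted p = 9.95e-16, and 1.43 ± 0.08 without the sample that stood apart) and 1.13 ± 0.10 late (adjusted p = 1.55e-08). Its samples at 3 d lay within 181 to 204 FPKM, the sample that stood apart among them, while those of Ctss spanned 13.8 to 106 FPKM. After scaling Ctsd passed at every time point but 28 d, where its log2 fold change was 0.58. Ctsa, protective protein/cathepsin A, passed at 5 d and 7 d alone (0.69 and 0.70) and at none after scaling, and Tpp1, tripeptidyl peptidase, at no time point (0.19 late).

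Membrane proteins were mixed, with 4 of 7 higher late (1 after scaling). Laptm5, a membrane protein of blood cells that promotes turnover of their receptors, lies at chr4:130913125-130936141 (+ strand). It read 3.63, 3.66, 4.11 and 4.44 FPKM at 0 d and 8.37 to 17.4 FPKM late, with a median of 11.0 and no overlap (log2 fold change 1.28 ± 0.12, adjusted p = 9.00e-08). At 3 d it read 4.14, 10.9, 17.4 and 17.8 FPKM, so that the sample that stood apart lay within the control range (log2 fold change 1.28 ± 0.30 with it and 1.69 ± 0.25 without it).

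Cd63, a tetraspanin of late endosomes and secreted vesicles, lies at chr10:128900989-128912822 (+ strand). It read 29.4, 31.4, 31.9 and 32.7 FPKM at 0 d and peaked at 3 d with 92.2, 114, 116 and 118 FPKM, a log2 fold change of 1.77 ± 0.08 (adjusted p = 1.84e-16), or 1.86 ± 0.08 without the sample that stood apart. It rose by 1.28 ± 0.08 from 1 d to 3 d (1.36 ± 0.08 without that sample), and late samples lay between 51.7 and 68.3 FPKM, still above every control (0.89 ± 0.06). The late decline against 3, 5 and 7 d was -0.58 ± 0.05 (adjusted p = 8.54e-11), just short of the 1.5-fold limit, and passed it after scaling. Against 0 d, Cd63 was called higher at 6 time points in FPKM and at 3 after scaling, where the late change was 0.53 and not called.

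Lamp2, the membrane glycoprotein needed for autophagosome clearance, was called higher from 3 d on. Its mean reached 37.2 ± 1.85 FPKM at 28 d against 19.0 ± 0.64 at 0 d, but it passed at no time point after scaling. Lamp1, its close relative, went from 122 ± 5.45 FPKM at 0 d to 164 ± 17.0 at 3 d and 107 ± 10.5 at 28 d, and passed at no time point on either scale. Laptm4a was called higher at 7, 14 and 28 d and at no time point after scaling. Scarb2, the receptor that carries glucocerebrosidase to the lysosome, passed at 5 d alone and at none after scaling, and Mcoln1, the lysosomal calcium channel, at none, with means from 3.57 to 4.78 FPKM.

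The cholesterol exporters parted. Npc1, the membrane protein that moves cholesterol out of the lysosome, read 5.32, 5.47, 8.01 and 8.03 FPKM at 0 d and 22.1, 22.3, 24.4 and 26.5 FPKM at 1 d, a log2 fold change of 1.71 ± 0.12 (adjusted p = 2.63e-12). It then read 12.6, 13.4, 15.0 and 17.3 FPKM at 3 d, 10.3, 10.7, 10.7 and 11.3 at 5 d, and 6.19, 7.71, 8.50 and 9.82 at 7 d. At 14 d it read 5.23, 5.91, 6.78 and 6.96 FPKM, at 21 d 3.98, 4.04, 4.07 and 4.19, and at 28 d 3.39, 3.74, 3.81 and 3.99. The level thus went from above all controls at 1 d to below all controls at 21 d and 28 d, with a log2 fold change of -0.68 ± 0.12 at 28 d (adjusted p = 1.46e-05). Its exons share 601 bases with 2 genes on the opposite strand. Npc2, the soluble protein that hands cholesterol to it, was called higher at 5, 7 and 28 d in FPKM, with means of 10.5 FPKM at 0 d and 16.6 at 28 d, and at none after scaling.

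**Figure D2:**
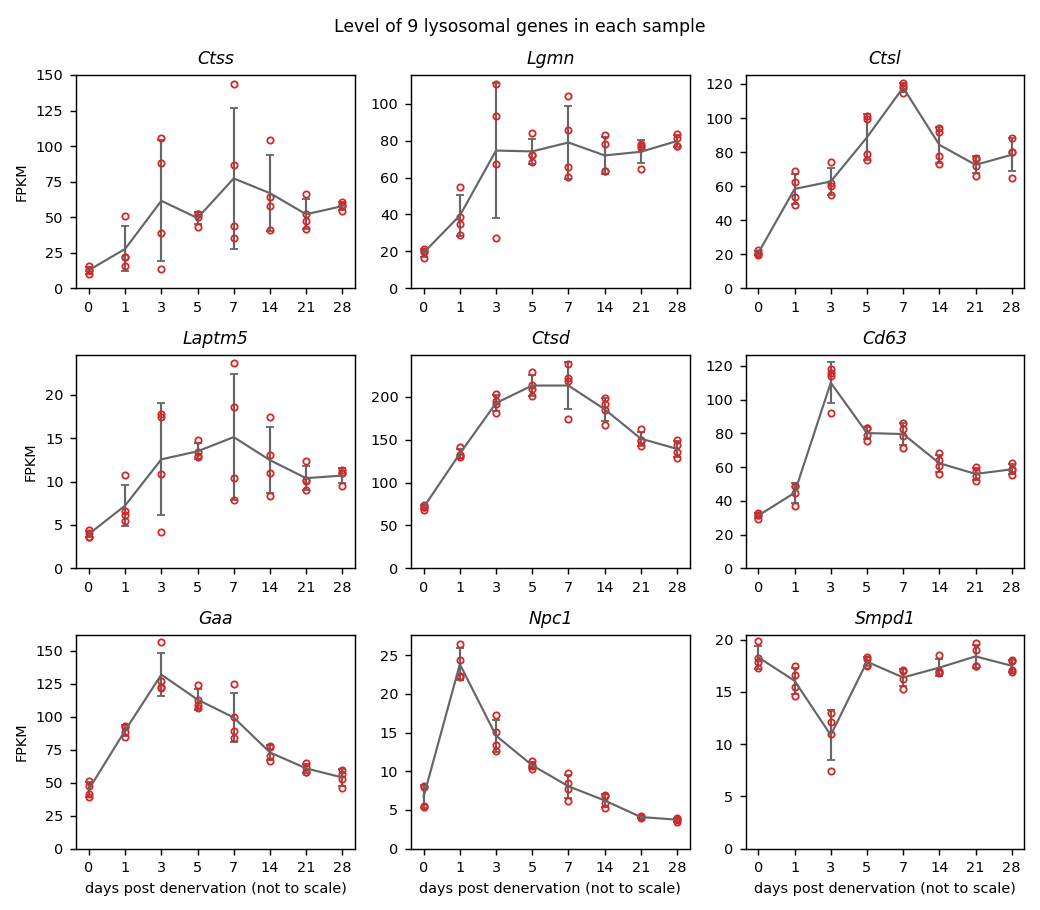
FPKM of 9 lysosomal genes in each of the 32 samples (open circles) by days post denervation, with the group mean and SD (n = 4) joined by a line; each axis starts at 0. Npc1 peaked at 1 d, Cd63 and Gaa at 3 d and Ctsl at 7 d, Smpd1 dipped at 3 d, and samples of Ctss, Lgmn and Laptm5 spread widely at 3 d and 7 d.

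Of the glycosidases, 4 of 6 were higher late (1 after scaling). Gaa, acid alpha-glucosidase, degrades lysosomal glycogen and lies at chr11:119267887-119285454 (+ strand). It read 39.3, 41.7, 47.6 and 51.5 FPKM at 0 d, 84.4, 88.5, 92.2 and 92.7 at 1 d, and 122, 123, 127 and 156 at 3 d. From there it read 106, 109, 113 and 124 FPKM at 5 d, 83.7, 89.0, 99.7 and 125 at 7 d, and 66.6, 70.1, 76.8 and 78.1 at 14 d. At 21 d it read 58.2, 58.4, 61.6 and 64.9 FPKM, and at 28 d 45.8, 53.0, 56.8 and 59.9, where it overlapped the controls again. The change was 1.53 ± 0.10 at 3 d (adjusted p = 4.78e-13), or 1.45 ± 0.10 without the sample that stood apart, while late it was 0.46 ± 0.11 and did not reach 1.5-fold. At 3 d the highest value, 156 FPKM, came from the sample in which most of the other genes were lowest.

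Gusb, beta-glucuronidase, and Hexa, a subunit of beta-hexosaminidase, were higher from 3 d on and peaked at 5 d, at 11.3 ± 1.08 and 52.9 ± 3.20 FPKM against 3.46 ± 0.22 and 20.1 ± 2.09 at 0 d. After scaling Gusb passed at 5 time points and Hexa at 3. Glb1, beta-galactosidase, passed at 5 of 7 time points and Neu1, a sialidase, at 5, both at low levels of at most 7.64 FPKM in any group mean. After scaling Glb1 passed at 2 time points and Neu1 at none. Gla, alpha-galactosidase A, passed at none, with means from 1.28 to 2.41 FPKM.

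Lipid hydrolases and activators held 4 of 6 genes that were higher late, none of them after scaling. Grn, progranulin, a precursor of lysosomal granulins that macrophages secrete, peaked at 5 d at 39.3 ± 3.78 FPKM against 13.1 ± 1.38 at 0 d. Lipa, acid lipase, was higher from 3 d on (late 0.76), Ppt1, a thioesterase, from 5 d on (late 0.82), and Asah1, acid ceramidase, from 7 d on (late 0.65). After scaling Grn and Lipa each passed at 3 time points, and Ppt1 and Asah1 at none. Psap, the precursor of the saposins and among the most abundant of the 34 genes, had means from 234 to 349 FPKM and passed at no time point.

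Smpd1, acid sphingomyelinase, at chr7:105554360-105558389 (+ strand), went the other way at 3 d. It read 17.3, 17.9, 18.3 and 19.9 FPKM at 0 d and 7.45, 11.0, 12.1 and 13.0 at 3 d, below every control. It read 17.5 to 18.4 FPKM at 5 d and 15.3 to 17.1 at 7 d, again below every control but not called (log2 fold change -0.15, and -0.51 after scaling). The log2 fold change at 3 d was -0.73 ± 0.09 (adjusted p = 1.38e-07). Without the sample that stood apart, which held the lowest value, it was -0.57 (adjusted p = 8.48e-09), under 1.5-fold.

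Setting 3 d against 1 d, 5 genes were higher (Cd63, Gusb, Ctsz, Lgmn and Ctsb, 6.63% of all genes) and 1, Npc1, lower (3.93%), against 5 (6.20%) and 2 (4.60%) after scaling. This count turned on 2 samples. Without the 3 d sample that stood apart it was 13 (8.53% of all genes), with Ctss and Grn among those added (1.47 and 1.07), and without the 1 d sample it was 8 (7.37%). Npc1 was -0.68 ± 0.12 (adjusted p = 2.96e-05) with all samples.

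The late against the early time points (14, 21 and 28 d against 3, 5 and 7 d) gave none higher (1.97% of all genes) and 2 lower (1.72%), against none (1.80%) and 3 (1.87%) after scaling. Npc1 fell by 1.08 on the log2 scale (SE 0.07, adjusted p = 3.04e-13) and Gaa by 0.86 (SE 0.06, adjusted p = 2.75e-12). At an unadjusted p under 0.05, 8 genes were higher (23.6% of all genes) and 15 lower (18.4%), and limma-voom called none higher (8.38%) and 3 lower (4.16%). Without the 3 d sample that stood apart, 4 were lower (1.79%), Grn and Cd63 being added. Ctsk, Ppt1 and Laptm4a stood at the other end, at 0.45, 0.31 and 0.24, under 1.5-fold.

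Macrophage markers also rose after the nerve was cut. The 14 markers, Adgre1, Csf1r and C1qa among them, summed to 183 to 267 FPKM at 0 d, 296 to 468 at 1 d, 342 to 1226 at 3 d, 743 to 914 at 5 d and 514 to 1501 at 7 d. Later they summed to 511 to 1158 FPKM at 14 d, 525 to 733 at 21 d and 607 to 707 at 28 d. At 1 d 6 of 14 were called higher, at 3 d 13 and late 13, and after scaling 6, 12 and 13.

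Within 7 d, the sample with the marker sum of 1501 FPKM had the highest Ctss, Lgmn and Ctsd, at 144, 104 and 238 FPKM, and the sample with the sum of 514 the lowest, at 35.2, 60.4 and 174 FPKM. Gaa was lowest in that second sample too, at 83.7 FPKM, but read 89.0 FPKM in the first and was highest, at 125 FPKM, in the one with a sum of 617 FPKM. At 3 d the sample with a sum of 342 FPKM had the lowest Ctss and Lgmn, at 13.8 and 27.0 FPKM, and its Ctss lay within the control range. For Ctsd and Gaa it did not: that sample read 191 and 156 FPKM, both far above the controls, beside a marker sum close to those at 1 d. In that sample 15 of the 34 genes exceeded every control, the same number as did so in all 4 samples at 3 d. The share over all genes was not counted. The part of macrophage content in the changes was not tested.

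**Figure D3:**
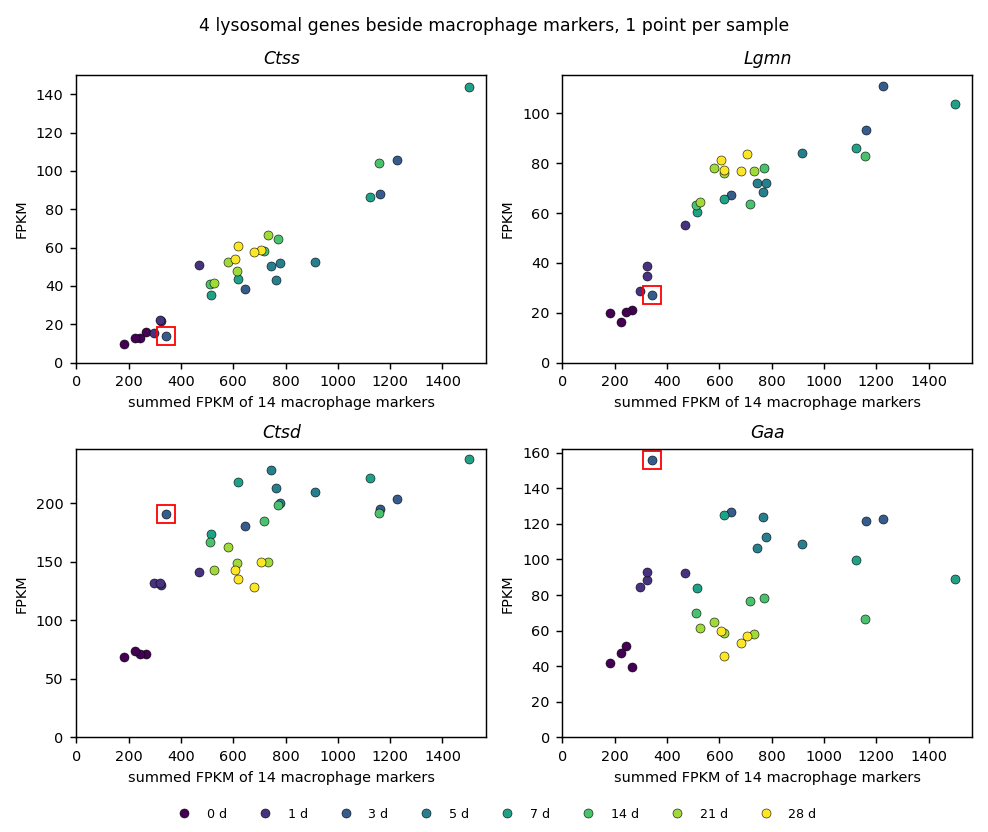
FPKM of Ctss, Lgmn, Ctsd and Gaa (vertical axes) against the summed FPKM of 14 macrophage markers (horizontal axes), 1 point per sample, coloured by days post denervation, with a red square around the 3 d sample that stood apart. Ctss in that sample lay within the control range at 13.8 FPKM and Lgmn between the controls and the 1 d samples at 27.0 FPKM, whereas Ctsd and Gaa sat high, at 191 and 156 FPKM.

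Other cell types were read from their own markers. Neutrophil markers summed to 1.14 to 1.77 FPKM at 0 d and 6.56 to 90.8 at 1 d, with 3 of 4 tested called higher at 1 d and 2 late (4 and 1 after scaling). Later sums stayed above those at 0 d, at 17.0 to 28.2 FPKM at 3 d, 20.5 to 49.6 at 14 d and 19.7 to 37.5 at 28 d. The median log2 fold change at 1 d was 2.1 for the neutrophil markers, against 0.66 for the macrophage markers. T cell markers summed to at most 2.23 FPKM in any sample, and none was called. Of 7 fibroblast markers 4 were higher late (1 after scaling), summing to 480 to 624 FPKM at 0 d, 279 to 700 at 3 d, 440 to 936 at 7 d and 570 to 787 at 14 d. At 3 d and 7 d these sums also spread widely within a group and reached below every control. Of 5 endothelial markers 1 was lower late (4 after scaling). Schwann cell markers summed to 116 to 247 FPKM at 0 d and 22.2 to 29.4 at 21 d, with 3 of 5 lower late and 1 higher (3 and none after scaling). Myofibre markers were lower for 4 of 7 late and higher for 1 (5 and 1 after scaling), from a sum of 39388 to 43095 FPKM at 0 d to 25416 to 28716 at 28 d. Their part in the lysosomal changes was not tested.

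The rest of the lysosomal system was then read from lists of related genes. Over all 20243 genes tested late, 14.5% were higher and 4.26% lower, and after scaling 6.88 and 8.15%. The late counts of each list below are to be read beside these shares. Of 27 other acid hydrolases (a list that also holds the cytosolic peptidase Tpp2), 9 were higher late and none lower (2 higher after scaling). Their median log2 fold change was 0.38, and 0.12 after scaling. Galns, which cleaves sulfate from keratan sulfate, and Dnase2a, the lysosomal DNase, led with 1.58 ± 0.11 and 1.35 ± 0.07, followed by Plbd2 (0.91). Of 16 tested further membrane proteins, 4 were higher (1 after scaling): Cd68, itself a macrophage marker, at 1.69, the amino acid sensor Slc38a9 at 0.77, and the channels Tpcn2 and Tpcn1 at 0.68 and 0.61.

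The V-ATPase is the proton pump that acidifies the lysosome. Of its 17 genes 9 were higher late and none lower (5 higher after scaling), with a median of 0.68 (0.35 after scaling). Atp6v1a, the catalytic subunit, went from 6.67 ± 0.59 FPKM at 0 d to 22.6 ± 3.57 at 3 d and 21.1 ± 1.61 at 28 d (late 1.51 ± 0.05, adjusted p = 8.03e-14). Atp6v0d2, the subunit known from osteoclasts and macrophages, Atp6v1e1 and Atp6ap2 followed at 1.47 ± 0.25, 1.35 ± 0.05 and 1.14 ± 0.05. Of 11 genes that sort enzymes to the lysosome 2 were higher late (14.5% of all genes) and 1 after scaling (6.88%). The 2 were the mannose 6-phosphate receptor Igf2r (1.45 ± 0.06) and Sort1 (0.89 ± 0.09).

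Of 10 regulators, the MiT/TFE factors and parts of the mTORC1 branch that control them, 1 was higher late and none lower. After scaling 1 was higher and 3 lower. Mtor, the kinase, went from 4.68 ± 0.43 FPKM at 0 d to 14.5 ± 1.53 at 28 d (late 1.48 ± 0.07, adjusted p = 5.67e-12), and Tfeb stood at 8.94 ± 0.83 and 5.94 ± 0.60 FPKM (late -0.57, under 1.5-fold). Of 4 tested cathepsin inhibitors 3 were higher late, on both scales. Cst6, which inhibits legumain and cathepsin L, stood at 2.22 ± 0.18, Serpinb6a at 1.83 ± 0.06 and Cstb, cystatin B, at 0.99 ± 0.08. Serpinb6a went from 56.8 ± 1.65 FPKM at 0 d to 90.2 ± 1.63 at 3 d and 194 ± 11.1 at 28 d.

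**Figure D4:**
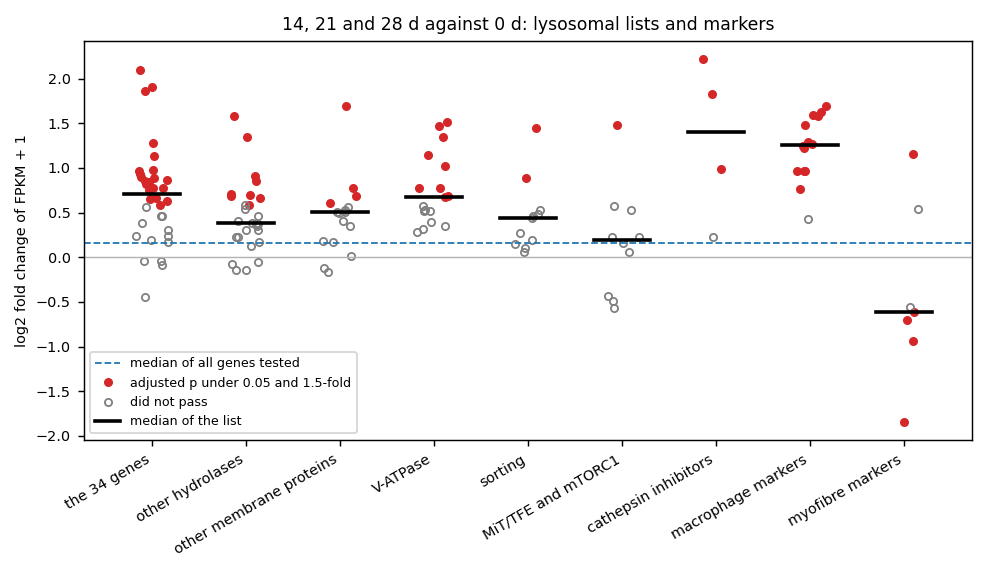
Log2 fold change (log2(FPKM + 1) scale) of single genes at 14, 21 and 28 d against 0 d for the 34 lysosomal genes, related lysosomal lists and the markers of macrophages and myofibres, with filled points for genes called, black bars for list medians and a dashed line for the median of all genes tested. The 34 genes had a median of 0.71, other hydrolases 0.38 and V-ATPase genes 0.68, against 0.15 for all genes. After median-ratio scaling, not drawn here, these medians were 0.41, 0.12 and 0.35, against 0.02.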

How the data were processed

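Gene levels came from 1 table with a column per sample. The authors deposited FPKM values; HISAT2 2.1.0, GRCm38, CASAVA and DESeq2 are named in the submitters' processing notes, while the counter, the annotation and the use of strand are not given in the sources used here. The labels' extraction text and the study's methods name different library kits. Column headings give the time point but no single animal, so the 4 columns of a group were used as its replicates, which the study describes as independent samples. FPKM multiplied by merged exon length (GENCODE mouse release 21, 33356 of 33397 genes matched) gave whole fragments (within 0.05) for 99.3 to 99.4% of values under 200 fragments. Such precision concerns counting error alone.

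Fits used log2(FPKM + 1) and limma 3.58.1 in R 4.3.3 (lmFit, eBayes with a variance trend), leaving out genes that did not reach 0.1 FPKM in 4 or more samples. Time points were compared in 1 fit of all 32 samples, and 14, 21 and 28 d against 0 d in a fit of those 16. The P-values were adjusted by Benjamini-Hochberg over all genes tested. Alternatives were median-ratio scaling, quantile normalization, TPM, limma-voom on fragments, a pseudocount of 0.1, a stricter filter, the adjusted p alone, only the groups compared, and leaving out each sample. Tested on simulated data with 200 genes changed 2-fold, the fit recovered 161 at 3 d with 4 false calls among 22071 genes, and 174 late with 0 among 20243. The simulated noise was drawn independently from the fitted spread, and the changed genes had 0 d means above 1 FPKM. Samples that shift many genes together were not simulated, so these figures do not cover them. Values were given in every sample for the 5 highest and 3 lowest called genes late and at 3 d and the 3 and 3 of late against early; at most 4 called genes were named per related list, and 1 of these is not reported here. Members, lists and tests were chosen with earlier results of these data known. Promoter sequences are from RefSeq (GRCm38.p6). Of the 34 genes, 11 share exon bases with another gene.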

Additional observations from a re-analysis of the deposited data

Results flagged for a closer look

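In each of 272 groups of 4 samples (34 genes at 8 time points), the gap between an end sample and its nearest neighbour was set against the group's range by Dixon's test. It marked 11, where chance alone would give about 13.6, or 1 in 20. At 0 d, Ctsf was low in 1 sample (4.49 FPKM against 5.34 to 5.42) and Neu1 high in another (5.19 against 3.81 to 3.98). At 1 d, Ctsc was high at 22.8 FPKM (14.3 to 15.5 in the rest), in the sample with the highest macrophage marker sum of its group. At 3 d, Cd63 was low at 92.2 FPKM (114 to 118) and Gaa high at 156 FPKM (122 to 127), both in the sample that stood apart. At 5 d, Ctsh at 13.7 FPKM (11.5 to 11.6) and Grn at 45.0 FPKM (36.9 to 37.8) were high in the same sample, the one with a macrophage marker sum of 914 FPKM. At 7 d, Neu1 was low at 5.82 FPKM (7.97 to 8.33), in the sample with the lowest marker sum. Single samples also stood out for Smpd1 at 14 d (18.5 FPKM against 16.8 to 17.0), Lgmn at 21 d (64.6 against 76.1 to 78.2) and Hexa at 28 d (30.5 against 35.0 to 35.6).

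For 2 genes the change against 0 d differed by at least 1.5-fold between the late and the early time points, by a test of the difference itself. It was -1.08 for Npc1 and -0.86 for Gaa on the log2 scale (limma, adjusted p = 3.04e-13 and 2.75e-12). By the adjusted p alone, without the 1.5-fold limit, 8 genes were higher (19.5% of all genes) and 11 lower (15.2%). Causes of these patterns were not tested.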

How the results depend on the processing

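Median-ratio scaling gave 15, 15, 10, 8 and 6 higher at 5, 7, 14, 21 and 28 d in order and 8 late, with 2 lower at 3 d, 1 at 21 d, 1 late and 2 at 3 d against 1 d. It moved the share of higher among all called genes from 71.8, 68.7, 79.5, 79.0, 79.3, 75.0 and 77.6% to 46.9, 49.6, 46.6, 47.4, 46.5, 47.3 and 44.8% at the 7 time points in order, and from 77.3 to 45.8% late. Quantile normalization gave 15, 13 and 11 higher at 5, 14 and 28 d (7.26, 7.07 and 7.21% of all genes), 12 late (7.50%) and 2 at 3 d against 1 d (5.18%), with 1 lower at 21 d (6.61%), 1 late (7.44%) and 2 at 3 d against 1 d (4.91%). The adjusted p alone gave 10 higher and 1 lower at 1 d (20.4 and 9.01% of all genes), 2, 1 and 2 lower at 3, 21 and 28 d (14.3, 10.1 and 9.85%) and 1 late (12.1%), 8 higher and 11 lower late against early (19.5 and 15.2%), and 13 higher and 2 lower at 3 d against 1 d (17.2 and 13.7%). A pseudocount of 0.1 and limma-voom each gave 1 lower at 21 d (6.37 and 6.53%) and 2 lower at 3 d against 1 d (7.79 and 8.10%). At 3 d against 1 d, TPM gave 8 higher (9.68%) and the fit of only these groups 3 (7.75%). Leaving out 1 sample moved the lower counts to 0 to 1 at 3 d, 0 to 1 at 21 d, 2 to 4 late against early and 1 to 2 at 3 d against 1 d, and the higher count there to 4 to 13. The 1 lower at 21 d appeared without either of 2 samples at 0 d or 1 at 21 d, and the 2 lower at 3 d against 1 d without 1 sample at 1 d or either of 2 at 3 d. Smpd1 at 3 d had -0.57 without the sample that stood apart. The cause was not tested. Of the other counts, 166 under these settings and 198 with a sample left out stayed within 1.5 times; of the log2 fold changes of the genes followed in every sample, 130 and 175 kept direction and call. No paired analysis was possible because the columns of the denervated groups carry letters, tied to no replicate number of the labels, while those at 0 d carry numbers.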
